A study of Mus musculus with 8 samples.

Results

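The thymus exposes developing T cells to proteins of peripheral organs, and 8 genes that encode such proteins and that are well-known targets of autoimmune disease were followed here: Ins2, Gad1, Gad2, Tg, Tshr, Mog, Rbp3 and Sag. They were chosen by name as autoantigens of the pancreas, the thyroid, myelin and the retina. All 8 were found among the 27179 gene identifiers measured, and 5 of the 8 passed the filter on low values. RNA was sequenced from 8 libraries of thymic epithelial cells (TECs) of C57BL/6 mice. The groups were medullary cells (mTECs) with an Mcl1 knockout (KO mTEC, 1 library), wild-type mTECs (WT mTEC, 2 libraries), cortical cells (cTECs) with the same knockout (KO cTEC, 1 library) and wild-type cTECs (WT cTEC, 4 libraries). The labels name the knockout but not the deleted part of Mcl1, a driver of the deletion, the age of the mice or any pooling of animals. The series calls its replicates biological without tying them to animals, so the p-values measure the spread between these libraries.

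Medullary thymic epithelial cells are known for transcribing a wide range of genes that are otherwise restricted to single peripheral tissues. The transcriptional regulator Aire drives many of these genes, each in a small share of mTECs, and the transcription factor Fezf2 drives others. T cells that bind the resulting peptides strongly are deleted or become regulatory T cells, and cortical cells instead serve positive selection. Of the 8 genes, Ins2 encodes an insulin precursor, and Gad1 and Gad2 encode the glutamate decarboxylases GAD67 and GAD65, which make the neurotransmitter GABA and are found in neurons and pancreatic islets. Tg encodes thyroglobulin, the scaffold on which thyroid hormone is made, and Tshr encodes the thyrotropin receptor. Mog encodes myelin oligodendrocyte glycoprotein. Rbp3 and Sag encode interphotoreceptor retinoid-binding protein and arrestin of the photoreceptors, both used to induce uveitis in animals.

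Mice have a second insulin gene, Ins1, and how well reads can be told apart between the copies decides what an Ins2 value means. The stretch that encodes the insulin B chain, bases 73 to 162 of the coding sequence, is shown for both copies in lower case, with the 5 bases at which they differ in capitals (GENCODE M21 transcripts, 90 bases each).
Ins2: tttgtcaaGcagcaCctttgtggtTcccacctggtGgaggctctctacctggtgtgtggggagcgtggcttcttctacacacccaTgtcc
Ins1: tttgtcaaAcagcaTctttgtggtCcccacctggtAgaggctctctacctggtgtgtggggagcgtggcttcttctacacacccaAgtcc
Over the whole coding sequence 302 of 327 aligned bases were identical (92.4%), and the longest run shared by the transcripts compared was 56 bases, against sequenced ends of 75 bases. Gad1 and Gad2 were 67.2% identical over their coding sequences, and their longest shared run was 17 bases. A sequenced end that lies whole within these transcripts therefore crossed a difference between these copies. The treatment of reads that match several genes is not given in the sources used here.

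RefSeq windows of the 2 decarboxylase genes are shown because the genes behaved unlike each other in mTECs, with each CG pair in capitals. The windows are from RefSeq on GRCm38.p6, 250 bases before to 50 after the gene's start, written 5′ to 3′ on the gene's strand. The start is that of the RefSeq table, which lies 826 bases for Gad1 and 1312 bases for Gad2 inside the gene spans printed with the values. The windows are chr2:70561879-70562178 for Gad1 and chr2:22622077-22622376 for Gad2, both on the plus strand. RefSeq windows were matched for 5 of the 8 genes.
Gad1: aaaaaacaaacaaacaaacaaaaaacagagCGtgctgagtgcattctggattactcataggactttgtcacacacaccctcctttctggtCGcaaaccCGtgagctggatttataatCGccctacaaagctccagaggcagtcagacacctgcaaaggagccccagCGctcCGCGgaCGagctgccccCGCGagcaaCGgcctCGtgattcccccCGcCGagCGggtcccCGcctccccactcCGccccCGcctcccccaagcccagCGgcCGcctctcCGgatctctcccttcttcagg
Gad2: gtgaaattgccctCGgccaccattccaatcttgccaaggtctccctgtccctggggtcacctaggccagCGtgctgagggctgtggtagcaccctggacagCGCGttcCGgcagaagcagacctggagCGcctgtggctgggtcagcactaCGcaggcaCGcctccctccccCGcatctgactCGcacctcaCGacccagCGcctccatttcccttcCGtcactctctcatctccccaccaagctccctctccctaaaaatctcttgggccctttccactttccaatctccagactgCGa
The Gad1 window held 21 CG pairs and the Gad2 window 14, against 3 for Mog, 2 for Rbp3 and 3 for Sag. The median over all 32851 RefSeq windows was 7, with quartiles of 3 and 20.

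The RefSeq windows of the retinal genes Rbp3 (chr14:33953753-33954052) and Sag (chr1:87803430-87803729), both on the plus strand of GRCm38.p6 and from RefSeq, are shown with the letters GGATTA in capitals. The Rbp3 window is at the start of the gene span printed with its values, whereas the RefSeq start of Sag lies 5537 bases inside that gene's span. The letters GGATTA, or TAATCC on the other strand, are the core bound by the photoreceptor homeodomain factors CRX and OTX2, and they were searched on both strands after the sequences had been seen.
Rbp3: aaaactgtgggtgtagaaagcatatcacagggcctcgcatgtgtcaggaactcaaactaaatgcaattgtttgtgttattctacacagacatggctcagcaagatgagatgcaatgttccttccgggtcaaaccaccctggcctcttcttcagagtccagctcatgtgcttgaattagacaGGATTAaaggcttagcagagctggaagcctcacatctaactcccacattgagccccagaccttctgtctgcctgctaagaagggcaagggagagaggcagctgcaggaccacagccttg
Sag: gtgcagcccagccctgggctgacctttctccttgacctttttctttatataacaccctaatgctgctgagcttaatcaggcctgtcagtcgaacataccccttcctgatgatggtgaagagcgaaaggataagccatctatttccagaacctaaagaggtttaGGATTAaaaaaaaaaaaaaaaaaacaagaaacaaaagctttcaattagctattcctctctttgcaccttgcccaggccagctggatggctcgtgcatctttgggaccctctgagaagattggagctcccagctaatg
Each window held the letters once, and so did that of Gad1, which is no photoreceptor gene. They occurred in neither the Gad2 nor the Mog window and in 7.1% of all RefSeq windows. A match is a description of these letters and not of binding.

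The libraries held between 11516780 (KO mTEC) and 19171953 (WT mTEC 1) counts. A count of 0 allows up to 0.26 CPM (a gene's count scaled by the library's total) in KO mTEC, 0.157 and 0.161 CPM in WT mTEC, 0.196 CPM in KO cTEC and 0.164 to 0.226 CPM in WT cTEC. These limits, set at 3 counts, cover counting error only. Mcl1 was at 75.6 CPM in KO mTEC, 107 and 206 CPM in WT mTEC, 8.36 CPM in KO cTEC and 236, 308, 260 and 240 CPM in WT cTEC 1 to 4. The KO cTEC library thus had little Mcl1 RNA, whereas KO mTEC was below both WT mTEC libraries without passing the test (adjusted p = 0.539, edgeR's quasi-likelihood test with Benjamini-Hochberg adjustment). The 6 mTEC markers checked (Aire, Fezf2, Cd80, Ccl21a, Tnfrsf11a and Cldn4) summed to 1513 CPM in KO mTEC, 1479 and 1625 CPM in WT mTEC, 11.035 CPM in KO cTEC and 1135 to 1318 CPM in WT cTEC. The 4 WT cTEC libraries therefore held mTEC marker RNA, which KO cTEC nearly lacked. The sum hides a split in wild-type cells. Aire, Fezf2, Cd80 and Tnfrsf11a were called higher in WT mTEC than in WT cTEC (log2 fold changes of 2.73, 1.85, 2.34 and 0.70). Ccl21a was called lower (-0.94), and Cldn4 was not called (-0.62, edgeR). Of all genes tested, 27% were called in this comparison. The 6 cTEC markers summed to 830 CPM in KO mTEC, 739 and 816 CPM in WT mTEC, 4091 CPM in KO cTEC and 1563 to 3206 CPM in WT cTEC.

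Autoantigen RNA was concentrated in the medullary cells of both genotypes, and most of it there came from Ins2 and Gad1. The 8 genes summed to 63.6 CPM in KO mTEC, 53.6 and 67.2 CPM in WT mTEC, 2.68 CPM in KO cTEC and 13.3, 3.83, 5.51 and 5.68 CPM in WT cTEC 1 to 4. The 3 mTEC libraries lay above all cTEC libraries, and KO cTEC lay below every WT cTEC library. A count was found for 5 of the 8 genes in KO mTEC, 7 and 8 in WT mTEC, 3 in KO cTEC (Sag, Tg and Mog) and 5, 5, 7 and 4 in WT cTEC 1 to 4. In these bulk samples, fewer cells with a transcript and less of it per cell cannot be told apart.

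The makeup of the summed counts differed between the populations. Ins2 made up 48.0% of the 733 counts of the 8 genes in KO mTEC and 40.4% and 46.0% of the 1027 and 1254 counts in WT mTEC. Gad1 made up 34.1% in KO mTEC and 41.1% and 31.3% in WT mTEC. In KO cTEC, 34 of the 41 counts were Sag (82.9%), whereas Sag made up 22.8%, 13.7%, 30.7% and 44.2% of the counts in WT cTEC 1 to 4.

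**Figure D1:**
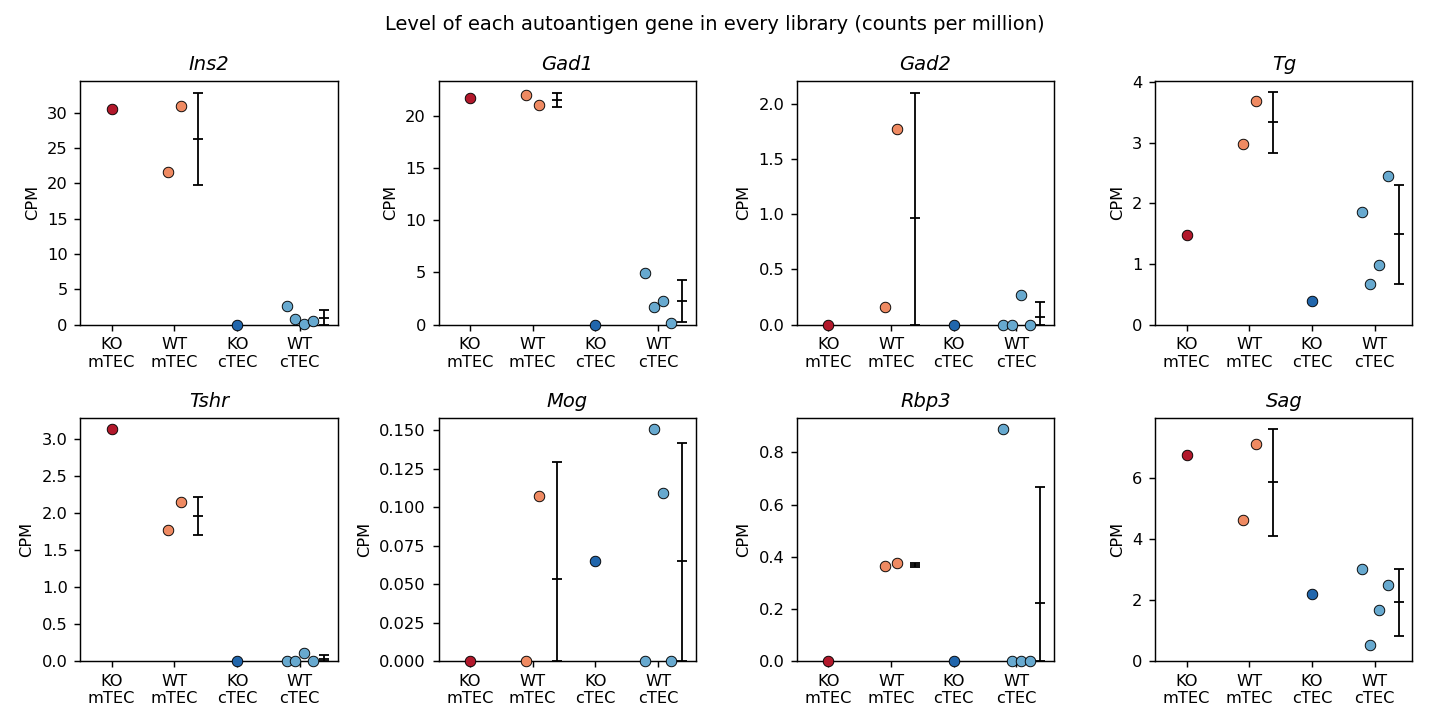
Level of each of the 8 autoantigen genes in CPM (y axis, own scale for each gene, starting at 0) in every library (points) of KO mTEC, WT mTEC, KO cTEC and WT cTEC, with the mean and SD beside the WT groups (bars end at 0 where the SD is larger than the mean). Ins2 and Gad1 stand at 21.05 CPM or more in all 3 mTEC libraries and at 4.96 CPM or less in every cTEC library.

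Per length (RPKM, CPM divided by the gene's exonic length in kilobases), the order of levels in WT mTEC was Ins2 at 46.5 ± 11.6, Gad1 at 6.66 ± 0.211 and Sag at 3.42 ± 1.02 RPKM (SD, n = 2), each separated from the next by more than these SDs. Tshr at 0.402 ± 0.0535 and Tg at 0.395 ± 0.0606 RPKM did not differ beyond their spread. Gad2, Rbp3 and Mog followed at 0.171, 0.0701 and 0.0314 RPKM. In KO mTEC the order of the genes with a count was the same, with Ins2 at 54.1, Gad1 at 6.72, Sag at 3.94, Tshr at 0.641 and Tg at 0.175 RPKM. In WT cTEC, Ins2 at 1.74 ± 1.96, Sag at 1.13 ± 0.637 and Gad1 at 0.707 ± 0.618 RPKM (SD, n = 4) overlapped within their SDs. In KO cTEC, Sag at 1.29 RPKM stood above Tg at 0.0464 and Mog at 0.0383 RPKM.

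In wild-type cells, the question was how far the autoantigens differed between the population known for such transcripts and the cortex. Ins2, Gad1 and Tshr were higher in WT mTEC than in WT cTEC and passed the test, Sag and Tg were above all WT cTEC libraries without passing it, and Gad2, Mog and Rbp3 were too low to enter it. That is 3 genes called of the 5 tested, all higher, where 27% of the 18163 genes tested were called and 13.2% were called higher. Tshr passed the filter on low values only through the WT mTEC libraries in which it is high. Ins2 reached 1 CPM in WT cTEC 1 but in no other cTEC library, so it passed that filter only with mTEC libraries. These shares are therefore not read as support. Both WT mTEC libraries lay above all 4 WT cTEC libraries for 5 of the 8 genes. These are the 5 genes tested, and the pattern was found for 27.9% of all genes tested. The number of the 8 genes called was 1 (Ins2) when WT mTEC 1 was left out and 0 when WT mTEC 2 was left out. The median log2 difference over all genes tested was 0.06. With a stricter filter (1 CPM in 4 libraries or more), which Tshr did not pass, 2 of the 8 genes were called.

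Ins2 (Entrez 16334, chromosome 7, 142678656 to 142679726, mm10) was at 21.6 and 30.9 CPM in WT mTEC 1 and 2 and at 2.59, 0.752, 0.0545 and 0.546 CPM in WT cTEC 1 to 4. The groups did not overlap, and the WT cTEC values spanned from 1 count in library 3 to 35 counts in library 1. The means were 26.3 ± 6.55 CPM in WT mTEC (SD, n = 2) and 0.986 ± 1.11 CPM in WT cTEC (SD, n = 4), a log2 fold change of 4.83 ± 0.84 (SE) with an adjusted p of 0.00611 by edgeR's quasi-likelihood test with Benjamini-Hochberg adjustment. Among the cTEC libraries Ins2 reached 1 CPM only in WT cTEC 1, so it passed the filter on low values only with mTEC libraries. Tested without that filter, Ins2 passed as well (adjusted p = 0.00744, edgeR). Its paralog Ins1, which encodes the other mouse insulin, had 4 and 10 counts in WT mTEC and 0 in all 4 WT cTEC libraries.

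Gad1 (Entrez 14415, chromosome 2, 70561303 to 70602014) was at 22.0 and 21.05 CPM in WT mTEC 1 and 2 and at 4.96, 1.73, 2.29 and 0.164 CPM in WT cTEC 1 to 4. The WT mTEC libraries were nearly equal, whereas the WT cTEC libraries ran from 3 to 67 counts. The log2 fold change was 3.31 ± 0.80 (adjusted p = 0.0198, edgeR's quasi-likelihood test). Gad2 (Entrez 14417, chromosome 2, 22621015 to 22693877) was at 0.157 and 1.77 CPM in WT mTEC 1 and 2, from 3 and 33 counts, and had 5 counts in WT cTEC 3 (0.273 CPM) and 0 in the other WT cTEC libraries. Both WT mTEC libraries had Gad2 counts but the lower of them lay under WT cTEC 3. Tested without the filter on low values, Gad2 differed by 3.57 ± 1.55 on the log2 scale and did not pass (adjusted p = 0.129, edgeR).

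Tshr (Entrez 22095, chromosome 12, 91400993 to 91540509) was at 1.77 and 2.14 CPM in WT mTEC 1 and 2, from 34 and 40 counts. In WT cTEC it had 2 counts in library 3 (0.109 CPM) and 0 in libraries 1, 2 and 4. The ratio of WT mTEC to WT cTEC over pooled counts was 62.0, with an exact 95% counting interval of 16.6 to 522. The gene passed the test (adjusted p = 0.0111, edgeR's quasi-likelihood test with Benjamini-Hochberg adjustment). It passed the filter on low values only through the WT mTEC libraries in which it is high, so this result is not read as support. Tested without that filter, it passed as well (adjusted p = 0.00938, edgeR).

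Tg (Entrez 21819, chromosome 15, 66670754 to 66850721), the other thyroid gene, was at 2.97 and 3.70 CPM in WT mTEC 1 and 2 and at 1.85, 0.677, 0.982 and 2.46 CPM in WT cTEC 1 to 4. It was found in all 8 libraries. The lowest WT mTEC value was close to the highest WT cTEC value, and the log2 fold change of 1.20 ± 0.70 did not pass (adjusted p = 0.228, edgeR). Tg shares 112 exonic bases with the antisense gene Gm17140, and the strand setting of the counting is not given, so reads of these bases cannot be told apart.

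Sag (Entrez 20215, chromosome 1, 87798143 to 87845158) was at 4.64 and 7.12 CPM in WT mTEC 1 and 2 and at 3.03, 0.526, 1.69 and 2.51 CPM in WT cTEC 1 to 4. The groups did not overlap, but the log2 fold change of 1.63 ± 0.64 did not pass with edgeR (adjusted p = 0.0933). It passed with limma-voom (adjusted p = 0.0342). Rbp3 (Entrez 19661, chromosome 14, 33954003 to 33964219), the other retinal gene, had 7 counts in each WT mTEC library (0.365 and 0.375 CPM), and in WT cTEC it had 12 counts in library 1 (0.888 CPM) and 0 in the other 3. The WT cTEC library with Rbp3 thus lay above both WT mTEC libraries.

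Mog (Entrez 17441, chromosome 17, 37010740 to 37023398) was at or below 2 counts in every library. It had 0 and 2 counts in WT mTEC 1 and 2 and 0, 2, 2 and 0 counts in WT cTEC 1 to 4. All these values were under the 3-count limit, so a level of Mog was not detectable at this depth.

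In the knockout medullary cells, Ins2, Gad1 and Sag lay between the 2 WT mTEC libraries, and Tg and Tshr lay outside them without passing the test. None of the 5 genes tested was called between KO mTEC and WT mTEC, where 0% of the 18163 genes were called (1502 genes and none of the 8 at an unadjusted p under 0.05, edgeR). The KO group is 1 library, assumed to vary like the WT libraries. DESeq2 called 139 genes in this comparison, none of them among the 8.

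Ins2 was at 30.6 CPM in KO mTEC (exact 95% counting interval 27.5 to 33.9), against 21.6 and 30.9 CPM in WT mTEC. Gad1 was at 21.7 CPM in KO mTEC (interval 19.1 to 24.6), against 22.0 and 21.05 CPM in WT mTEC. For both genes the KO value lay between those of the WT libraries. The log2 fold changes were 0.26 ± 1.10 for Ins2 (adjusted p = 0.985) and 0.04 ± 1.14 for Gad1 (adjusted p = 0.997, edgeR). With SEs above 1, differences as large as 2-fold are not detectable here.

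Sag was at 6.77 CPM in KO mTEC, against 4.64 and 7.12 CPM in WT mTEC, also between the WT libraries. Tshr was at 3.13 CPM in KO mTEC (36 counts), against 1.77 and 2.14 CPM in WT mTEC, and Tg was at 1.48 CPM in KO mTEC (17 counts), against 2.97 and 3.70 CPM in WT mTEC. The 2 thyroid genes thus lay on opposite sides of the WT libraries, Tshr above both and Tg below both. Neither passed the test, with log2 fold changes of 0.71 ± 1.35 for Tshr (adjusted p = 0.953) and -1.14 ± 1.08 for Tg (adjusted p = 0.853, edgeR).

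The 3 genes of low level had no count in KO mTEC. Gad2 was at least 3.69-fold lower in KO mTEC than the WT mTEC mean of 0.962 ± 1.14 CPM, a mean carried by WT mTEC 2, since the value in WT mTEC 1 was itself under the KO limit of 0.26 CPM. For Rbp3 the KO limit was 1.42-fold below the WT mTEC mean of 0.37 ± 0.0069 CPM. That mean rests on 7 counts in each WT mTEC library, with exact counting intervals of 0.15 to 0.75 and 0.15 to 0.77 CPM. Both intervals reach below the KO limit, so a decrease of Rbp3 is not established. Tested without the filter on low values, neither Gad2 nor Rbp3 passed between KO mTEC and WT mTEC (edgeR). Mog was not detectable in KO mTEC, with a limit of 0.26 CPM against 0 and 0.107 CPM in WT mTEC.

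**Figure D2:**
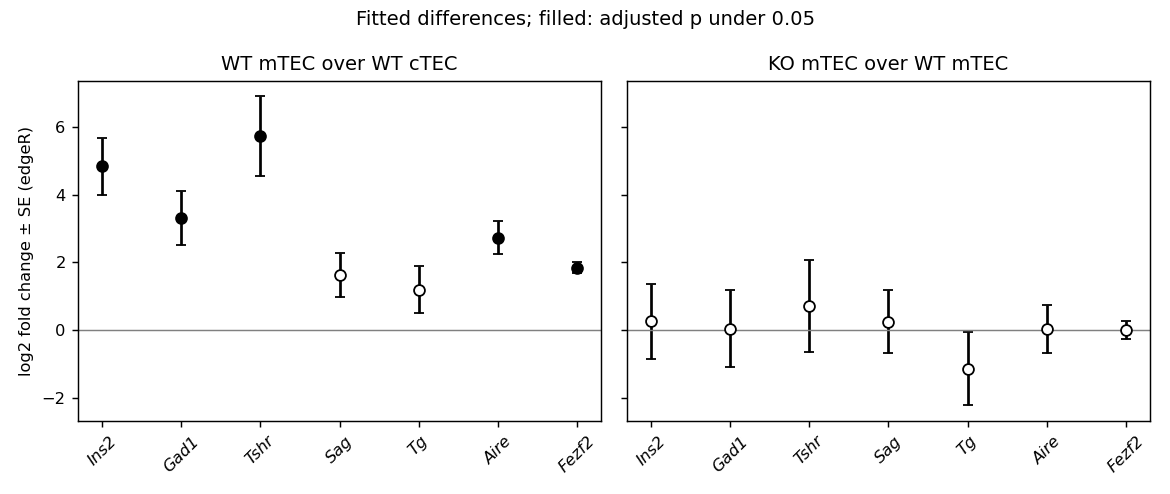
Fitted log2 fold change with its SE (edgeR, y axis) of the 5 autoantigen genes tested and of Aire and Fezf2, for WT mTEC over WT cTEC at the left and KO mTEC over WT mTEC at the right, with filled points where the adjusted p is under 0.05. In the wild-type comparison Ins2, Gad1, Tshr, Aire and Fezf2 are filled, and in the knockout comparison none is, with values from -1.14 for Tg to 0.71 for Tshr.

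In the knockout cortical cells, Ins2, Gad1 and Tg lay below every WT cTEC library, while Sag lay within the WT cTEC range. None of the 5 genes tested was called, against 17.5% of the 18163 genes called and 12.4% called lower, and 2 of the 8 (Ins2 and Gad1) had an unadjusted p under 0.05 with edgeR. DESeq2 called both lower, with adjusted p-values of 0.0292 for Ins2 and 0.00685 for Gad1. The KO cTEC library was below all 4 WT cTEC libraries for 3 of the 8 genes. These 3 are among the 5 genes tested, and the pattern was found for 33% of all genes tested. Gad2, Tshr, Mog and Rbp3 had 0 counts in some WT cTEC libraries, so KO cTEC could not lie below all 4.

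Ins2 and Gad1 had 0 counts in KO cTEC, against 35, 10, 1 and 10 counts for Ins2 and 67, 23, 42 and 3 counts for Gad1 in WT cTEC 1 to 4. Against the 3-count limit of 0.196 CPM in KO cTEC, Ins2 was at least 5.03-fold lower than the WT cTEC mean of 0.986 ± 1.11 CPM (adjusted p = 0.154, edgeR's quasi-likelihood test). Gad1 was at least 11.7-fold lower than the WT cTEC mean of 2.29 ± 2.00 CPM (adjusted p = 0.0791). WT cTEC 1 carried much of both means, and without it the bounds were 2.30-fold for Ins2 and 7.12-fold for Gad1. WT cTEC 3 for Ins2 and WT cTEC 4 for Gad1 were themselves under the KO cTEC limit. Without WT cTEC 4, the library with the fewest Gad1 counts, Gad1 was called (adjusted p = 0.00957).

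Tg had 6 counts in KO cTEC (0.392 CPM, exact 95% interval 0.144 to 0.853), against 1.85, 0.677, 0.982 and 2.46 CPM in WT cTEC 1 to 4. Its log2 fold change of -1.92 ± 1.11 did not pass (adjusted p = 0.274, edgeR). Sag had 34 counts in KO cTEC (2.22 CPM, interval 1.54 to 3.10), against 3.03, 0.526, 1.69 and 2.51 CPM in WT cTEC 1 to 4, with a log2 fold change of 0.19 ± 0.87 (adjusted p = 0.903). Sag was thus the only one of the 8 genes with more than 6 counts in KO cTEC.

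The other 4 genes were at or under the counting limit in KO cTEC and gave little to compare. Tshr had 0 counts in KO cTEC, against 2 counts in all of WT cTEC, and Gad2 had 0 counts in KO cTEC, against 5 counts in WT cTEC, all of them in library 3. Rbp3 had 0 counts in KO cTEC, against 12 counts in WT cTEC, all of them in library 1. Mog had 1 count in KO cTEC, against 0, 2, 2 and 0 counts in WT cTEC 1 to 4.

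The knockout effect was also compared between the populations, since Ins2 and Gad1 lay between the WT libraries in KO mTEC and were at 0 counts in KO cTEC. The ratio of KO to WT was 1.16 for Ins2 and 1.01 for Gad1 in mTECs, whereas in cTECs Ins2 was at least 5.03-fold and Gad1 at least 11.7-fold lower in KO, or 2.30-fold and 7.12-fold without WT cTEC 1. The test of this difference did not pass for Ins2 (adjusted p = 0.289), Gad1 (adjusted p = 0.192), Tg (adjusted p = 0.831), Tshr (adjusted p = 0.662) or Sag (adjusted p = 0.998, edgeR's quasi-likelihood test with Benjamini-Hochberg adjustment). That is 0 of 5 genes tested called, against 6.81% of the 18163 genes, and 1 of the 8 (Gad1) at an unadjusted p under 0.05. DESeq2 called Gad1 (adjusted p = 0.0296), and so did edgeR without WT cTEC 4 (adjusted p = 0.0264).

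Aire, like Ins2 and Gad1, was above every cTEC library in all 3 mTEC libraries and had no count in KO cTEC. Aire was at 439 CPM in KO mTEC, 321 and 561 CPM in WT mTEC, 0 CPM in KO cTEC and 121, 46.9, 29.1 and 77.7 CPM in WT cTEC 1 to 4. It was higher in WT mTEC than in WT cTEC by 2.73 ± 0.48 on the log2 scale (adjusted p = 0.00685), at least 350-fold lower in KO cTEC than in WT cTEC (adjusted p = 0.00313, edgeR), and between the WT libraries in KO mTEC. Fezf2 was at 372 CPM in KO mTEC, 333 and 428 CPM in WT mTEC, 0.327 CPM in KO cTEC and 124, 123, 86.4 and 104 CPM in WT cTEC 1 to 4. For both regulators the knockout effect differed between the populations (adjusted p = 0.00895 for Aire and 0.00019 for Fezf2, edgeR).

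Set against Aire counts of the same library, the autoantigens did not all keep 1 ratio. Ins2 counts were 6.97% of Aire counts in KO mTEC, 6.75% and 5.51% in WT mTEC and 2.15%, 1.60%, 0.188% and 0.703% in WT cTEC 1 to 4, so every WT cTEC library lay below the mTEC libraries. Tg ran the other way, at 0.336% of Aire counts in KO mTEC, 0.927% and 0.659% in WT mTEC and 1.54%, 1.44%, 3.38% and 3.16% in WT cTEC 1 to 4. Gad1 was at 4.95% in KO mTEC, 6.86% and 3.75% in WT mTEC and 0.211% to 7.88% in WT cTEC, and the groups overlapped. Sag was at 1.54% in KO mTEC, 1.45% and 1.27% in WT mTEC and 1.12% to 5.82% in WT cTEC, also with overlap. Set against Fezf2 counts instead, Ins2 again lay lower in every WT cTEC library, at 8.21% in KO mTEC, 6.50% and 7.23% in WT mTEC and 0.063% to 2.09% in WT cTEC. Tg then overlapped, at 0.397% in KO mTEC, 0.893% and 0.864% in WT mTEC and 0.552% to 2.35% in WT cTEC, whereas Gad1 did not, at 5.83% in KO mTEC, 6.61% and 4.92% in WT mTEC and 0.157% to 4.00% in WT cTEC. The place of Tg and Gad1 thus depended on the regulator chosen, and these ratios are a description with no test.

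**Figure D3:**
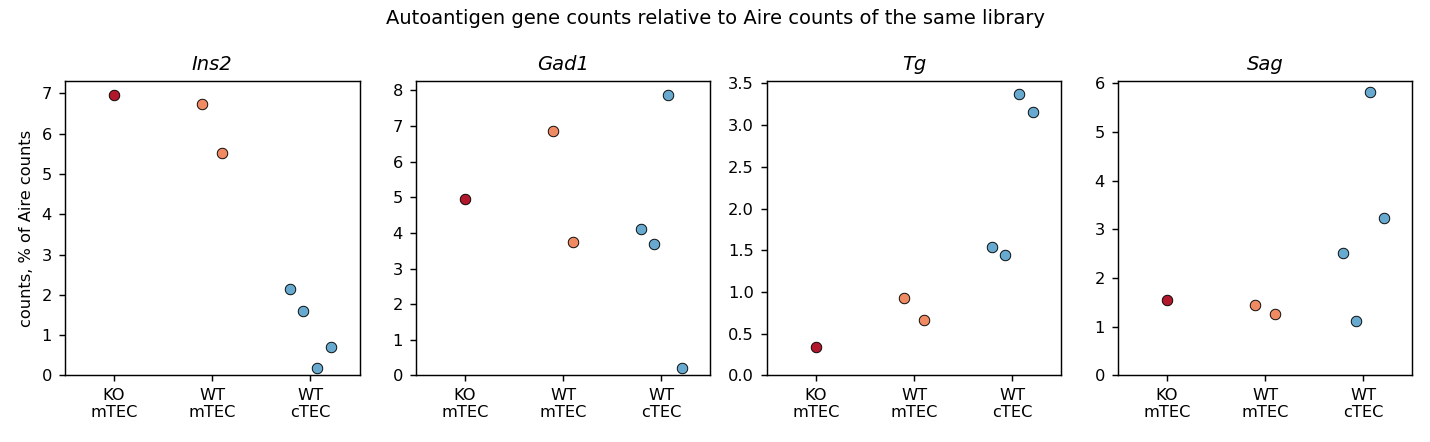
Counts of Ins2, Gad1, Tg and Sag as a percentage of the Aire counts of the same library (y axis, own scale for each gene, starting at 0), with 1 point per library of KO mTEC, WT mTEC and WT cTEC; KO cTEC has 0 Aire counts and no point. Every WT cTEC library lies below the mTEC libraries for Ins2 and above them for Tg, and the groups overlap for Gad1 and Sag; against Fezf2 counts Tg overlaps and Gad1 does not.

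RNA of other cells also varied between the groups, and its part in the autoantigen values was not tested. The dendritic cell and macrophage list and the B cell list ran like the autoantigen sum, highest in mTECs and lowest in KO cTEC. The sum of the mTEC markers given above ran the same way. The fibroblast, thymocyte and endothelial lists did not. The 6 dendritic cell and macrophage markers summed to 607 CPM in KO mTEC, 722 and 1043 CPM in WT mTEC, 10.1 CPM in KO cTEC and 127 to 240 CPM in WT cTEC. The 4 B cell markers summed to 62.0 CPM in KO mTEC, 41.0 and 53.3 CPM in WT mTEC, 0.653 CPM in KO cTEC and 10.5 to 28.9 CPM in WT cTEC. The 4 fibroblast markers summed to 763 CPM in KO mTEC, against 137 and 117 CPM in WT mTEC, and to 751 CPM in KO cTEC, against 587 to 868 CPM in WT cTEC, so KO mTEC stood apart from WT mTEC in this list. The 6 thymocyte markers summed to 49.0 CPM in KO mTEC, 34.01 and 37.2 CPM in WT mTEC, 26.8 CPM in KO cTEC and 37.0 to 103 CPM in WT cTEC, with both KO libraries outside the WT values of their population. The 3 endothelial markers summed to 47.1 CPM in KO mTEC, 32.2 and 6.11 CPM in WT mTEC, 11.9 CPM in KO cTEC and 3.83 to 12.6 CPM in WT cTEC. WT cTEC 1 held the highest WT cTEC values of the dendritic and B cell lists and also of Aire, Ins2, Gad1, Rbp3 and Sag. Without WT cTEC 1, the number of the 8 genes called between WT mTEC and WT cTEC was again 3.

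Transcription factors that drive the autoantigens in their home tissues were present only in part. Pdx1, which activates insulin genes in beta cells, had 0 counts in KO mTEC, 5 and 16 counts in WT mTEC, 0 counts in KO cTEC and 1 count in all of WT cTEC. KO mTEC thus had 352 Ins2 counts without a Pdx1 count. A count of 0 allows up to 0.26 CPM in this library, the one with the fewest counts, so Pdx1 at a low level is not excluded. The beta cell factors Mafa and Isl1 were lower in WT mTEC than in WT cTEC, with log2 fold changes of -1.56 ± 0.38 and -1.41 ± 0.23 (adjusted p = 0.0207 and 0.00487, edgeR), opposite in direction to Ins2. Nkx6-1, Neurod1 and Nkx2-2, the other beta cell factors checked, were too low to be tested. Pax8, a thyroid factor for Tg, was at 5.21 CPM in KO mTEC, 2.66 and 2.52 CPM in WT mTEC, 0 in KO cTEC and 0.148, 0.602, 0.109 and 0 CPM in WT cTEC 1 to 4, and it passed the filter on low values only through the mTEC libraries. Of the other thyroid factors checked, Nkx2-1 was too low to be tested. Foxe1 and Hhex were not called between WT mTEC and WT cTEC (log2 fold changes of -0.64 and 1.86). Foxe1 was called lower in KO cTEC than in WT cTEC (-4.33 ± 0.90, adjusted p = 0.0131, edgeR).

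The photoreceptor factor Crx, whose core letters stand in the Rbp3 and Sag windows shown above, had 7 counts in KO mTEC, 5 and 14 counts in WT mTEC and 0 counts in KO cTEC and in every WT cTEC library. Sag was counted in 5 cTEC libraries that held no Crx count. A count of 0 allows up to 0.164 to 0.226 CPM in WT cTEC and 0.196 CPM in KO cTEC, so a low Crx level is not excluded. Otx2, whose protein binds the same letters, was counted in WT cTEC 1. A part of either factor in the Sag values was not tested. Nrl, another rod factor, had 9 counts in KO mTEC, 36 and 42 counts in WT mTEC, 0 in KO cTEC and 3 in all of WT cTEC, and it passed the filter on low values only through WT mTEC, so no test is read from it. Nr2e3, which acts with them in rods, had 28 counts in KO mTEC, 16 and 12 counts in WT mTEC, 18 counts in KO cTEC and 0, 1, 2 and 0 counts in WT cTEC 1 to 4. It passed the filter only through the KO libraries, so no test is read from it. The ratio of KO cTEC to WT cTEC over pooled counts was 24.9, with an exact 95% counting interval of 7.26 to 132. That interval covers counting error only and no spread between libraries, so it is a description. Together, the 4 photoreceptor factors checked (Crx, Otx2, Nrl and Nr2e3) summed to 0.814 CPM in WT cTEC 1, from 2 genes, Otx2 and Nrl. They summed to 0.15, 0.109 and 0.055 CPM in WT cTEC 2 to 4 and to 1.175 CPM in KO cTEC, there from 1 gene, Nr2e3.

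A further 40 autoantigen genes of the same and other diseases were set beside the 8. Of the 33 tested, 7 were called higher and 1 lower in WT mTEC than in WT cTEC, beside 13.2% of all genes tested called higher. Of these 7, Rlbp1, Atp4b and Cyp11a1 passed the filter only through mTEC libraries. The median log2 difference was 1.46, beside 0.06 over all genes tested. Between KO mTEC and WT mTEC none of the 33 was called, beside 0% of all genes, with a median of 0.14 beside -0.03 over all genes. In KO cTEC 12 of the 33 were called lower and none higher than in WT cTEC, beside 12.4% of all genes called lower. The median was -4.37 as fitted and -2.20 with the 15 genes that had a group at 0 counts set to their bound, beside -0.14 over all genes. The knockout effect differed between the populations for 10 of the 33, all higher in mTECs, beside 6.81% of all genes.

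In the endocrine pancreas group, all 4 genes tested of 7 were called lower in KO cTEC than in WT cTEC, beside 12.4% of all genes tested. Iapp, the islet hormone amylin, had 0 counts in KO cTEC, against 30.6, 14.3, 7.53 and 25.8 CPM in WT cTEC 1 to 4, and was at least 99.9-fold lower (adjusted p = 0.00372, edgeR). Chga, a granule protein of endocrine cells, had 0 counts in KO cTEC, against 160, 73.8, 20.6 and 28.8 CPM in WT cTEC 1 to 4 (at least 362-fold lower, or 210-fold without WT cTEC 1, adjusted p = 0.0143). Ptprn and Ptprn2, receptor-type phosphatase family proteins of secretory granules and targets in type 1 diabetes, were also lower, Ptprn2 with a log2 fold change of -4.43 ± 0.68 (adjusted p = 0.00348). None of the 4 was called between WT mTEC and WT cTEC, unlike Ins2, beside 27% of all genes tested. The difference from Ins2 was not tested. The other genes of the group, Ins1, Slc30a8 and G6pc2, were too low to be tested. They had 4 and 10, 4 and 15, and 5 and 12 counts in WT mTEC 1 and 2 and 0 in every cTEC library. The contrast with Ins2 therefore covers only the genes that passed the filter.

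Parathyroid RNA, which can come with thymic tissue and also contains Chga, varied beside this group. The parathyroid markers Pth, Gcm2 and Casr summed to 259 CPM in KO mTEC, 33.7 and 29.0 CPM in WT mTEC, 0.326 CPM in KO cTEC and 98.2, 33.6, 7.58 and 8.19 CPM in WT cTEC 1 to 4. Chga was at 224 CPM in KO mTEC, against 74.1 and 95.2 CPM in WT mTEC. The part of parathyroid RNA in the Chga and Ins2 values was not tested. Ins2 was at 30.6 CPM in KO mTEC, against 21.6 and 30.9 CPM in WT mTEC, and in WT cTEC libraries 1, 2, 4 and 3, in falling order of the parathyroid sum, it was at 2.59, 0.752, 0.546 and 0.0545 CPM.

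Of the thyroid antigens, Iyd, which recycles iodide, was at 14.3 CPM in KO mTEC, 11.6 and 16.7 CPM in WT mTEC, 0 in KO cTEC and 1.11, 2.33, 2.18 and 0.601 CPM in WT cTEC 1 to 4. It was higher in WT mTEC than in WT cTEC by 3.22 ± 0.54 on the log2 scale (adjusted p = 0.00534) and at least 7.94-fold lower in KO cTEC than in WT cTEC (adjusted p = 0.0198, edgeR). Slc5a5, the iodide importer, was lower in KO cTEC than in WT cTEC, with a log2 fold change of -2.94 ± 0.68 (adjusted p = 0.0207). These were 2 called of the 5 thyroid antigens tested in KO cTEC, beside 12.4% of all genes called lower. Iyd was the 1 called in wild-type cells, beside 13.2% of all genes called higher.

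Of 5 retinal antigens tested, Rlbp1, a retinoid carrier of the visual cycle, stood highest in WT mTEC, with 93 and 136 counts in WT mTEC and 1 count in all of WT cTEC (ratio 384 over pooled counts, exact 95% counting interval 68.2 to 15230), and it passed the filter only through mTEC libraries. No retinal antigen was called in KO cTEC, beside 17.5% of all genes tested. Of 7 myelin and central nervous system antigens, none was called higher in WT mTEC, beside 13.2% of all genes tested. Aqp4, a water channel of astrocytes and the target in neuromyelitis optica, was lower (log2 fold change -1.65 ± 0.36, adjusted p = 0.0143, edgeR). Mbp, the major myelin basic protein, was at 55.5 CPM in KO mTEC, 55.7 and 56.2 CPM in WT mTEC, 12.9 CPM in KO cTEC and 40.1 to 62.8 CPM in WT cTEC, and was lower in KO cTEC than in WT cTEC, with a log2 fold change of -2.08 ± 0.30 (adjusted p = 0.00271). Mag, a myelin adhesion protein, had 0 counts in KO cTEC, against 10.6 to 15.9 CPM in WT cTEC, and was at least 70.7-fold lower (adjusted p = 0.000316). In the WT cTEC libraries Mog was thus at or under 2 counts where Mbp and Mag were well counted. Not all of the 7 listed genes were, since 6, 7, 7 and 5 of them had a count in WT cTEC 1 to 4. In KO cTEC, Mog had 1 count and Mag had 0.

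**Figure D4:**
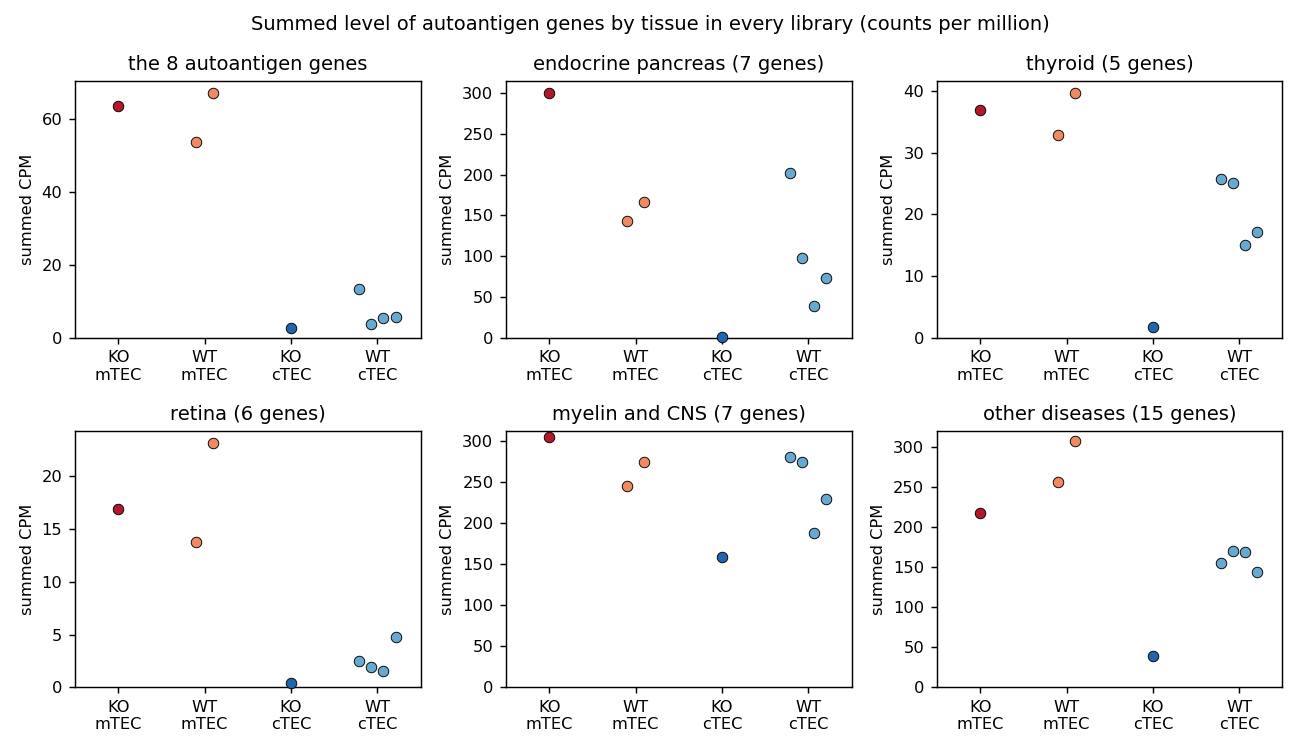
Summed CPM (y axis, own scale for each panel, starting at 0) of the 8 autoantigen genes and of 5 further groups of autoantigen genes, with 1 point per library of KO mTEC, WT mTEC, KO cTEC and WT cTEC. KO cTEC is the lowest library in every panel, at 2.68 CPM for the 8 genes and 0.457 CPM for the endocrine pancreas group.

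The genes with the profile most like that of each autoantigen were found by Pearson's r over the 8 libraries on log2 CPM. Ins2 was closest to Stra8, a regulator of meiotic entry in germ cells (r = 0.994), Apoa2, an apolipoprotein of the liver (r = 0.993), and Mt3, a metallothionein of the brain (r = 0.990). Gad1 was closest to the homeobox gene Dbx2 (r = 0.997), the germline gene Dppa3 (r = 0.991) and the interferon gene Ifnl2 (r = 0.990). Tshr was closest to Slc12a1, a salt transporter of the kidney (r = 0.997), Bpifb4 (r = 0.996) and Svs4, a seminal vesicle protein (r = 0.996).

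Tg was closest to Mphosph6 (r = 0.986), Atcayos (r = 0.984) and Hcn2, a pacemaker channel (r = 0.982), and Sag to Apool (r = 0.984), Ccdc173 (r = 0.983) and U2surp, a splicing factor (r = 0.979). The 8 points share libraries and depth and fall into few groups, the genes were picked from all genes tested as the closest, and the values of r are descriptions.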

How the data were processed

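Polyadenylated RNA was reverse transcribed and amplified for low input and sequenced as paired ends of 75 bases, per the labels' protocols. The authors deposited raw counts per gene, whole numbers with no normalization, for 27179 Entrez identifiers per library, made with featureCounts against mm10 per the submitters' processing notes. For the aligner, annotation and strand setting, the sources used here give nothing. In a table of the whole series, 8 columns matched no sample label and were not used.

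Symbols were matched for 25275 identifiers (93%). A gene was kept if 2 libraries or more reached 1 CPM (18163 genes). After TMM scaling, edgeR 4.0.16 (R 4.3.3) fitted its robust quasi-likelihood model with 1 mean per group over all 8 libraries (4 residual degrees of freedom). Tests were two-sided, and the threshold was 0.05 after Benjamini-Hochberg adjustment. The fit was tested on simulated data. SEs are the absolute log2 fold change divided by the square root of F. Lower bounds divide by 3 counts per library, and counting intervals are exact Clopper-Pearson intervals at 95%, for counting error only, since reads carry no molecular identifiers. Alternatives were DESeq2 1.42.0, limma-voom 3.58.1, other size factors and filters, each WT library left out, and a replicate block.

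The 8 genes, the other lists and the rule for named genes were chosen with earlier results of these data known. Named genes were the 8, Mcl1, Aire, Fezf2, list genes called in a comparison (up to 4 per list and direction) and the 3 genes most like each tested gene. Pdx1, Crx, Ins1 and further values of single list genes in other groups were named after their values were seen.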

Additional observations from a re-analysis of the deposited data

Results flagged for a closer look

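In WT cTEC, 3 of the 8 autoantigen genes had a single library far from the others, at low counts. The nominal chance of such a gap, about 1 in 20 groups, does not hold for genes mostly at 0. Gad2 was at 0.273 CPM in WT cTEC 3 (5 counts) and at 0 in the other 3. Tshr was at 0.109 CPM in WT cTEC 3 (2 counts) and at 0 in the other 3. The Tshr value is under the 3-count limit, and the Gad2 value is close to it. Rbp3 was at 0.888 CPM in WT cTEC 1 (12 counts) and at 0 in the other 3.

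The effect of the Mcl1 knockout differed between mTECs and cTECs for 3 genes set beside the autoantigens. The fitted difference, KO effect in mTECs minus KO effect in cTECs, was 13.11 on the log2 scale for Aire (adjusted p = 0.00895, edgeR), a value that rests on 0 counts in KO cTEC, depends on the prior count and is no bound. It was 8.36 for Fezf2 (adjusted p = 0.00019) and 3.96 for Mcl1 (adjusted p = 0.00277).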

How the results depend on the processing

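No called value changed sign. Values close to 0 that passed no test did: Sag in KO cTEC against WT cTEC was 0.19 on the log2 scale and -0.119 to 0.458 with 1 library left out, Gad1 in KO mTEC against WT mTEC was 0.04 and -0.039 to 0.122, and the difference of knockout effects for Sag was 0.05, -0.216 to 0.36 with 1 library left out and -0.122 with limma-voom. DESeq2, limma-voom, other size factors and no filter each called Ins2, Gad1 and Tshr between WT mTEC and WT cTEC. With the stricter filter Ins2 and Gad1 were called, and Tshr did not enter the test. The WT mTEC libraries decided that count: the number of the 8 genes called was 3, and 0 to 3 with 1 library left out. It was 1 (Ins2) when WT mTEC 1 was left out and 0 when WT mTEC 2 was, and then the adjusted p was 0.0621 for Ins2, 0.108 for Gad1 and 0.0907 for Tshr. Gad1 also missed the threshold when WT cTEC 2 (adjusted p = 0.0563) or WT cTEC 3 (adjusted p = 0.0523) was left out. Between KO cTEC and WT cTEC the count was 0, with 2 by DESeq2 and 0 to 1 with 1 library left out. For the difference of knockout effects it was 0, with 1 by DESeq2 and 0 to 1 with 1 library left out. Between KO mTEC and WT mTEC it was 0 throughout. With a replicate block (WT libraries only, 1 residual degree of freedom), 2 of the 8 genes were called between WT mTEC and WT cTEC, and Tshr missed the threshold (adjusted p = 0.0558). Same-numbered libraries deviated with correlations of -0.146 and -0.019, so these numbers were treated as names only.

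Over all genes, the 4910 called between WT mTEC and WT cTEC became 1183 without WT mTEC 1, 620 without WT mTEC 2, 3182 without WT cTEC 3 and 2089 with the replicate block. The 3179 called in KO cTEC became 1726 with limma-voom. The 0 called in KO mTEC became 139 with DESeq2, 7 without WT cTEC 1 and 864 with only the mTEC groups in the fit. The 1236 called for the difference became 2050 with DESeq2, 104 with limma-voom and 652 or 675 when WT mTEC 1 or WT mTEC 2 was left out. The cause was not tested. Each knockout group is 1 library, and Gad2, Mog and Rbp3 are limited by depth, at 0 to 33 counts per library. The lower bounds without WT cTEC 1 were computed after seeing the data.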

Other observations

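Autoantigens of the stomach, adrenal gland, liver and skin were counted in the same libraries. Of 12 genes of other autoimmune diseases tested, 5 were called higher in WT mTEC than in WT cTEC, beside 13.2% of all genes tested. Of these 5, Atp4b and Cyp11a1 passed the filter on low values only through mTEC libraries. Atp4a, the proton pump subunit targeted in autoimmune gastritis, was at 14.2 CPM in KO mTEC, 33.8 and 35.9 CPM in WT mTEC, 0.0653 CPM in KO cTEC (1 count) and 8.59, 8.27, 12.7 and 10.9 CPM in WT cTEC 1 to 4. It was higher in WT mTEC than in WT cTEC by 1.83 ± 0.26 on the log2 scale (adjusted p = 0.00295, edgeR), and Cyp1a2, a liver enzyme, by 4.12 ± 1.03 (adjusted p = 0.0219). Atp4b, the partner subunit of Atp4a, was at 4.54 and 6.96 CPM in WT mTEC and at 0.888, 0, 0.0545 and 0 CPM in WT cTEC 1 to 4. Cyp11a1, the first enzyme of steroid synthesis, was at 8.87 and 12.3 CPM in WT mTEC and at 0.592, 0.902, 0 and 0 CPM in WT cTEC 1 to 4.

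In KO cTEC, 3 of the 12 were called lower than in WT cTEC, beside 12.4% of all genes. Dsg1a, a desmosomal cadherin of the skin and a pemphigus antigen, had 1 count in KO cTEC, against 75.9, 81.6, 91.8 and 75.0 CPM in WT cTEC 1 to 4 (adjusted p = 6.4e-05, edgeR), and the ratio of WT to KO over pooled counts was 1247, with an exact 95% counting interval of 224 to 49270. Atp4a was lower as well (adjusted p = 0.000413), and Col2a1, a cartilage collagen used to induce arthritis in mice, had 0 counts in KO cTEC, against 2.37, 12.0, 12.5 and 4.70 CPM in WT cTEC 1 to 4, and was at least 40.4-fold lower (adjusted p = 0.0117). None of the 12 was called between KO mTEC and WT mTEC with edgeR, beside 0% of all genes tested.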
